A study of Mus musculus with 11 samples.

Results

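The enzymes that cut the extracellular matrix of the liver, and the inhibitors that hold them in check, were followed here through 9 genes in the hepatic mesenchyme of uninjured and injured mice. The genes were the metalloproteinases Mmp2, Mmp3, Mmp13, Mmp14, Mmp19 and Mmp23 and the tissue inhibitors Timp1, Timp2 and Timp3. They were picked by symbol and not by their values, and all 9 were found among the 27998 genes of the 10X Chromium tables and among the 24489 genes of the Smart-seq2 tables. All cells came from male C57BL/6 mice, aged 10 to 16 weeks by the methods, that carry the Pdgfrb-BAC-eGFP reporter, in which green fluorescent protein marks PDGFRβ-expressing mesenchyme. GFP-positive cells without CD45 or CD102 staining were sorted, so the data hold no unsorted liver and describe RNA mainly in mesenchyme. Some other cells remained. In Smart-seq2, 26 wells fell in a cluster led by Msln and 17 in one led by Alb, and both stayed without a class name. In each 10X library 23 to 107 cells held at least 3 markers of a non-mesenchymal type.

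Injury was either carbon tetrachloride (CCl4), a toxin that kills hepatocytes around the central vein, or bile duct ligation (BDL), which blocks bile flow and scars the portal tracts. CCl4 mice were taken 72 h after a single injection or after 6 weeks of injections given 2 times a week, and by the labels BDL mice were taken at 14 days. Digestion protocol 1, labelled PF, minced and digested the liver ex vivo and gave fibroblasts (FBs) and vascular smooth muscle cells (VSMCs). Digestion protocol 2, labelled HSC, perfused the enzymes through the liver and enriched hepatic stellate cells (HSCs), the vitamin A-storing pericytes of the sinusoid. The 5 10X libraries were uninjured and 6-week CCl4 livers in each protocol and 72 h CCl4 livers in protocol 2, with 3 mice per library by the labels. The 6 Smart-seq2 plates held wells of uninjured, BDL and 6-week CCl4 mice.

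Metalloproteinases are made as inactive zymogens, and their activity depends on activation and on inhibitors as well as on RNA. MMP14 sits in the cell membrane, cuts fibrillar collagen, and activates pro-MMP2, and TIMP2 acts as the bridge that holds pro-MMP2 to MMP14 while free TIMP2 inhibits both. TIMP1 is the inhibitor best known from scarring liver, where activated HSCs secrete it, and in rodents MMP13 is the main interstitial collagenase. The values below are RNA levels and say nothing of enzyme activity.

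The promoters of Mmp3 and Mmp13 are shown because both genes are textbook AP-1 targets, and that of Timp1 because its fold was the largest of the members at 20 CPM or more in these libraries. The 120 bases before each start are RefSeq sequence of GRCm38.p6 on the sense strand, and capitals mark TGANTCA, the AP-1 core motif, searched on both strands.
Mmp3, chr9:7445702-7445821: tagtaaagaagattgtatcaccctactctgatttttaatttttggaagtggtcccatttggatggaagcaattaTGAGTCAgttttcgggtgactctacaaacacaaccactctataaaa
Mmp13, chr9:7272394-7272513: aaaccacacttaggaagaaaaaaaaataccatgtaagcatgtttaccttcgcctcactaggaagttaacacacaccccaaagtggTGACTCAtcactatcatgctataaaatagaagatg
Timp1, chrX:20870046-20870165: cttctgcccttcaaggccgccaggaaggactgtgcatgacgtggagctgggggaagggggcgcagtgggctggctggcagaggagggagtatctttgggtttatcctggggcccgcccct
The motif ended 39 bases before the start of Mmp3 and 28 bases before that of Mmp13, and it was not in the Timp1 window. Of the 7 members with a sequence, 2 held the motif, while 3.41% of all 32851 promoters of this length did. The motif was chosen because Mmp3 and Mmp13 are textbook AP-1 targets, so that count says nothing of the members as a set. The windows of Mmp14, Mmp23, Timp2 and Timp3 held no match, and Mmp2 and Mmp19 were not among the sequences. A match is a run of letters and not a measured binding site. Mmp3 lies on chromosome 9 from 7445822 to 7455975 and Mmp13 on chromosome 9 from 7272514 to 7283331, both on the forward strand, and Timp1 lies on chromosome X from 20870166 to 20874735 of GRCm38.

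Of the barcodes in the 10X tables, 5454 to 7310 per library passed the filters, with median totals of 4300 to 11344 unique molecular identifiers (UMIs) per cell. Pairs of libraries shared 33 to 74 barcodes. Clusters were named by markers, and each carries "-like" because no annotation came with the files. FB-like cells numbered 4016 in uninjured and 2615 in 6-week livers of protocol 1, VSMC-like cells 1670 and 3006. HSC-like cells numbered 6850 in uninjured livers, 7125 at 72 h and 5433 at 6 weeks of protocol 2. A level gives a gene's UMIs out of every 1000000 UMIs counted in a class (CPM), with exact Poisson 95% intervals, which cover counting error only. With 1 library per condition no test between 10X conditions was possible, and a difference is one between libraries. A member counted as past 2-fold when its level was at least 20 CPM in the higher library, and such counts are read against the percentage of all genes at that level that were past 2-fold.

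**Figure D1:**
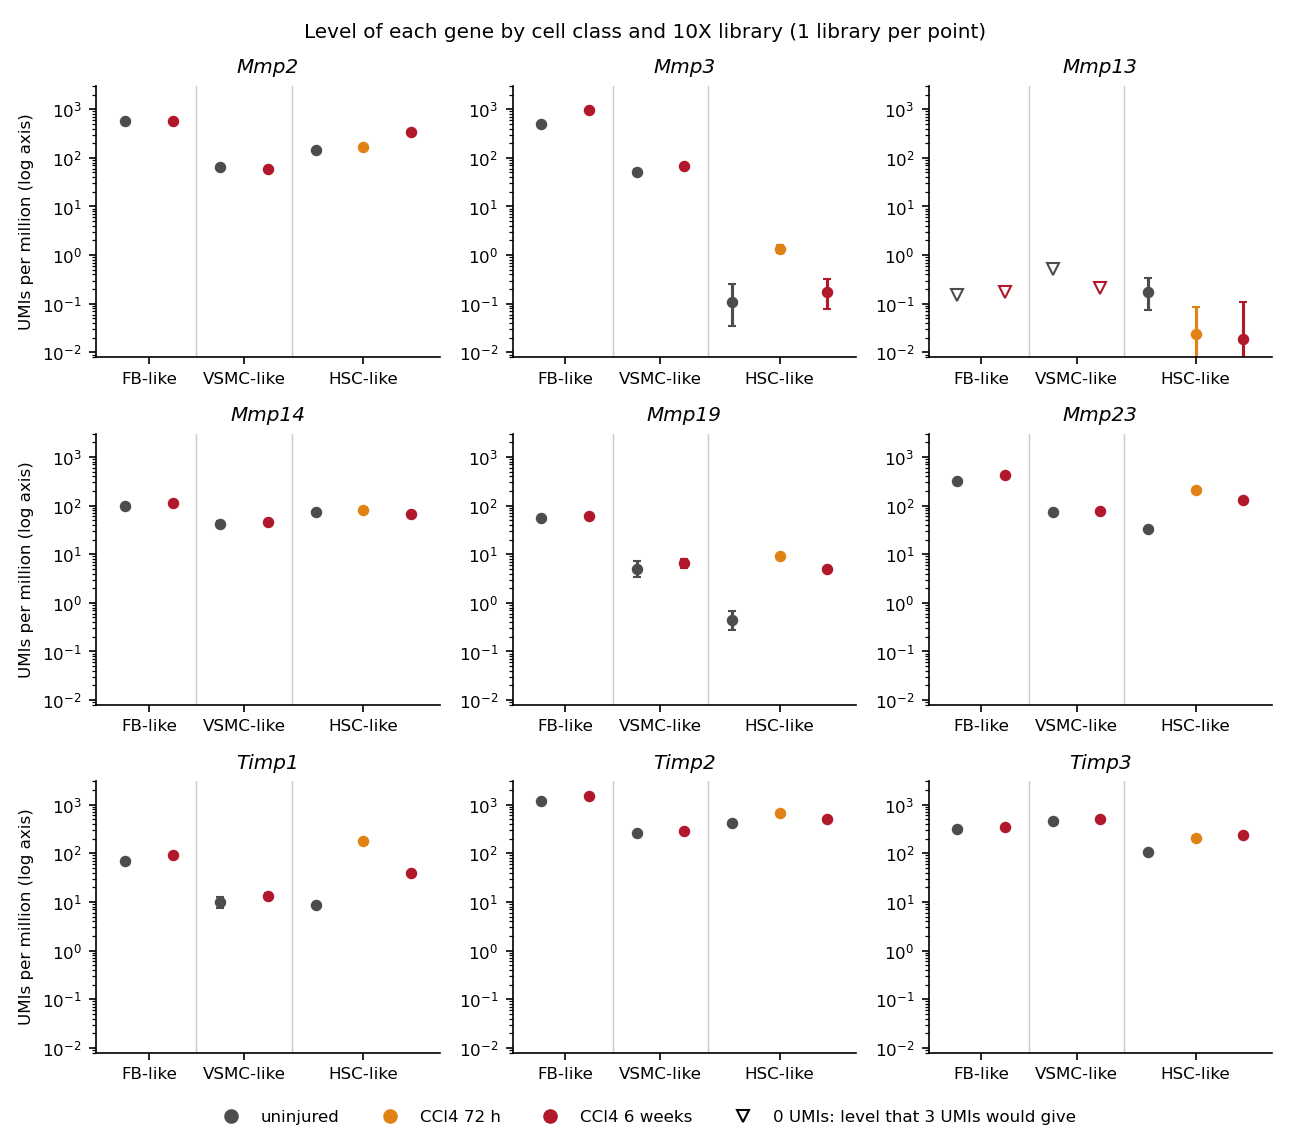
Levels of the members in CPM (log axis) in the 10X libraries, by class and condition, with exact Poisson 95% intervals as bars. Timp1 in HSC-like cells is at 8.56 CPM in uninjured livers, 176 CPM at 72 h and 40.0 CPM at 6 weeks, while Mmp3 is at 497 and 984 CPM in FB-like cells and near 0 in HSC-like cells.

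In HSC-like cells the inhibitors Timp1 and Timp3 and the enzyme Mmp23 were higher in both CCl4 libraries than in the uninjured one, and Mmp2 was higher mainly at 6 weeks. At 72 h, 2 of the 6 members at 20 CPM or more, Timp1 and Mmp23, were past 2-fold higher, where 6.43% of all genes were. At 6 weeks 4 of 6, Mmp2, Mmp23, Timp1 and Timp3, were past 2-fold higher, where 2.73% of all genes were. None was past 2-fold lower, where 9.53% of all genes were at 72 h and 1.58% at 6 weeks. The median log2 fold over the 6 members was 0.84 at 72 h and 1.17 at 6 weeks, against -0.21 and -0.22 over all genes.

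Timp1 was at 8.56 CPM (7.74 to 9.44) in uninjured HSC-like cells, at 176 CPM (173 to 179) at 72 h and at 40.0 CPM (38.3 to 41.8) at 6 weeks. The 72 h library was thus 20.5-fold (18.6 to 22.7) and the 6-week library 4.68-fold (4.199 to 5.22) above the uninjured library. Since the libraries differ in depth, cells were also thinned to 2000 UMIs each, which left out 114 uninjured cells. Of the thinned cells 1.29% held a Timp1 UMI in uninjured livers, 22.4% at 72 h and 7.20% at 6 weeks, against 3.61%, 62.7% and 26.2% at full depth. The order of the conditions was the same on every scale.

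Timp1 was uneven within each condition. In uninjured livers a set of 171 cells, which fell in a cluster made mostly of 6-week cells, made up 2.496% of HSC-like cells and held 30.98% of their Timp1 UMIs, at 98.5 CPM. The other HSC-like cells of that library stood at 6.07 CPM. Of those 171 barcodes, 1 also occurred in the 6-week library. A further 110 uninjured cells fell in another cluster made mostly of 6-week cells and were at 19.6 CPM (11.4 to 31.4), from 17 Timp1 UMIs. The 171 cells were at 118 CPM for Mmp23 and 220 CPM for Timp3, against 33.6 and 108 CPM over all uninjured HSC-like cells. At 72 h a cluster of 988 cells led by the cell division genes Birc5, Ube2c and Top2a held Timp1 at 269 CPM, the cluster of 2880 cells led by Plagl1 and Alcam held it at 193 CPM, and the cluster of 1278 cells led by Mest and C6 at 65.5 CPM. Levels are not given here for another dividing cluster, of 327 cells led by Cdc20 and Prc1, or for 1650 cells led by Slc39a1 and Abhd2. At 6 weeks the cluster of 978 cells led by Alcam and Ltbp2 was at 66.6 CPM, and the main clusters of 2125 and 1905 cells at 37.1 and 32.6 CPM. Clusters were drawn from these same cells, on variable genes that held no member, so these are descriptions and not tests.

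Timp1 was also concentrated in a handful of cells that were not named HSC-like. In the 6-week library of protocol 2, 21 FB-like cells held 746 of the library's 2821 Timp1 UMIs, which is 26.4%, at 1908 CPM (1774 to 2050). These 21 cells had a median of 19038 UMIs, against 9887 in the HSC-like cells of the library, and 1 of them was a called doublet, without which the level was 1936 CPM. Counted over all cells of that library, Timp1 was 6.31-fold above the uninjured library. The 183 FB-like cells of the 72 h library, with a median of 15193 UMIs against 11276 in HSC-like cells and 6 called doublets, were at 340 CPM with or without those doublets. Their class name is weak, since 168 of them formed a cluster that a stricter naming rule left unnamed. Their FB markers summed to 2359 CPM, against 11433 CPM in uninjured FB-like cells of protocol 1. HSC markers summed to 1633 CPM, against 5945 CPM in the HSC-like cells beside them, and VSMC markers to 5229 CPM. In protocol 1 the FB-like class was at 70.5 CPM (uninjured) and 90.9 CPM (6 weeks), so the few FB-like cells of protocol 2 livers stood above the FB-like class of protocol 1. The protocols differ in digestion, and how far that moves Timp1 was not tested.

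Mmp23, a membrane-tethered enzyme that is shed on activation, was at 33.6 CPM (31.9 to 35.3) in uninjured HSC-like cells, at 209 CPM (206 to 212) at 72 h and at 132 CPM (129 to 135) at 6 weeks. This was 6.24-fold (5.92 to 6.57) at 72 h and 3.93-fold at 6 weeks. The share of thinned cells with an Mmp23 UMI went from 6.09% to 30.05% and 21.5%. Timp1 and Mmp23 were the members past 2-fold at both times, joined by Timp3 when folds were scaled to the median gene.

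Mmp2, the gelatinase that degrades denatured and basement membrane collagen, was past 2-fold at 6 weeks only. It was at 146 CPM (142 to 149) in uninjured HSC-like cells, 170 CPM (167 to 173) at 72 h and 338 CPM (333 to 343) at 6 weeks, a 1.17-fold and a 2.32-fold (2.25 to 2.38) difference from uninjured. The 6-week value leaned on the Alcam and Ltbp2 cluster, where Mmp2 was at 656 CPM and which held 34.0% of the Mmp2 UMIs in 18.0% of the HSC-like cells. A stricter naming rule left that cluster unnamed, and Wt1, used here as a mesothelial marker, was among its leading genes. Without that cluster the fold was 1.86, under the 2-fold mark. Its usual partners were steadier: Mmp14 was at 72.3, 81.5 and 67.9 CPM in the 3 conditions, and Timp2 at 421 (415 to 426), 688 (682 to 693) and 502 (496 to 508) CPM, or 1.64-fold and 1.19-fold. A UMI of all 3 genes of the activation complex was seen in 1.83% (1.52 to 2.17) of thinned uninjured HSC-like cells, in 3.16% (2.76 to 3.59) at 72 h and in 4.62% (4.08 to 5.21) at 6 weeks.

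Timp3, the inhibitor that binds to the matrix and also restrains ADAM proteases, was at 108 CPM (105 to 111) in uninjured HSC-like cells. It stood at 210 CPM (206 to 213) at 72 h and 235 CPM (230 to 239) at 6 weeks, which is 1.95-fold and 2.18-fold, on either side of the 2-fold mark, and 2.25-fold and 2.54-fold when scaled to the median gene. Mmp19, a secreted enzyme of broad specificity, was rare at all times, with 21 UMIs (0.453 CPM) in uninjured, 765 UMIs (9.13 CPM) at 72 h and 253 UMIs (4.88 CPM) at 6 weeks. The 72 h ratio was 20.2 (13.1 to 32.8), but the level stayed below 20 CPM and the gene was not counted. Mmp3 gave 5, 114 and 9 UMIs, and 72.8% of the 72 h UMIs lay in the Birc5-led dividing cluster of 988 cells. Mmp13 gave 8, 2 and 1 UMIs and could not be followed at this depth.

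**Figure D2:**
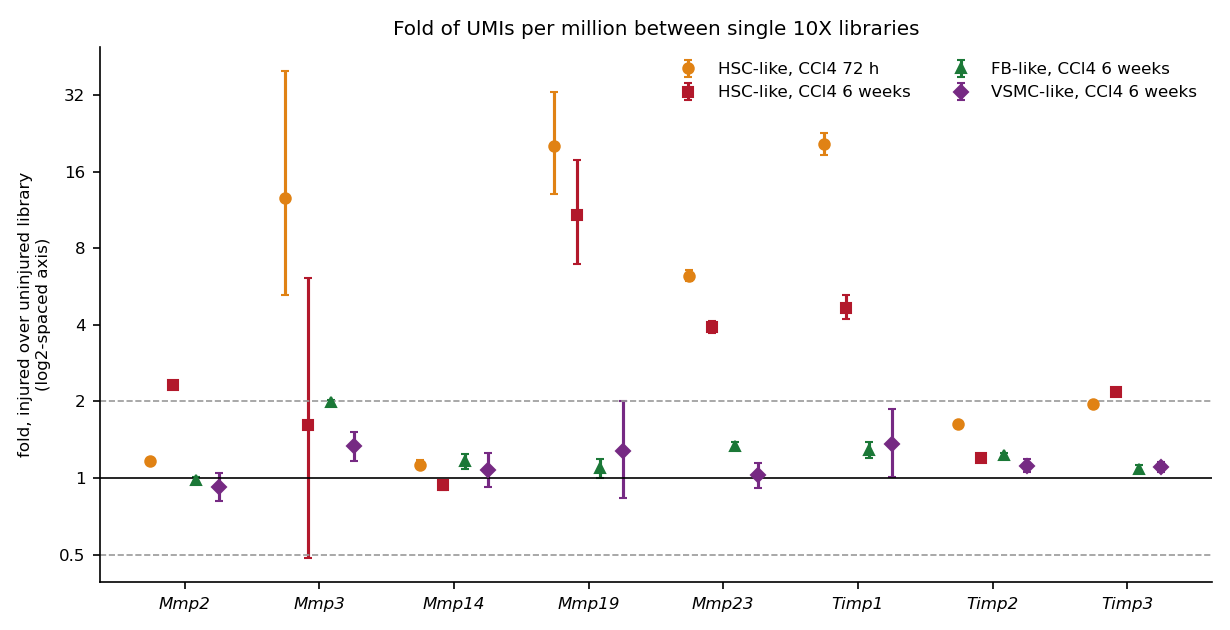
Fold of each member between 10X libraries (log axis) with exact conditional 95% intervals, for HSC-like cells at 72 h and 6 weeks and for FB-like and VSMC-like cells at 6 weeks, each against the uninjured library of the same protocol. Timp1 and Mmp23 in HSC-like cells lie well past 2-fold, and no member does in FB-like or VSMC-like cells.

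The fibrillar collagen genes, which code for the matrix these enzymes act on, followed a different order over time from Mmp2. Col1a1 in HSC-like cells went from 201 CPM to 2012 CPM at 72 h (10.0-fold) and stood at 606 CPM at 6 weeks (3.01-fold), so Col1a1, like Timp1 and Mmp23, was highest at 72 h, while Mmp2 and Timp3 were highest at 6 weeks. Stress genes differed between the libraries too. The summed level of 9 immediate early genes was 13347 CPM in uninjured, 6825 CPM at 72 h and 11239 CPM at 6 weeks, and that of 9 heat shock genes 3622, 1430 and 3552 CPM, and their part in the members' values was not tested. FB markers in HSC-like cells summed to 31.4, 282 and 553 CPM in the same order. The part of other cells in the members' values was not tested here either.

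HSC-like cells of each library were ranked along the lobule by the study's 52 portal and 29 central genes, a list the study chose on these samples and which holds no member. The cells at the central and at the portal end of the ranking, a set of 2283 at either end in uninjured livers, 2375 at 72 h and 1811 at 6 weeks, were then compared as a description. Mmp2 was at 174 CPM (168 to 181) at the central end and 116 CPM (111 to 122) at the portal end of uninjured livers. The gap was 217 against 126 CPM at 72 h and 503 (492 to 513) against 141 (136 to 147) CPM at 6 weeks, so the portal end at 6 weeks was near its uninjured level. Timp3 ran the other way in uninjured livers, with 84.03 CPM (79.4 to 88.8) at the central and 138 CPM (132 to 144) at the portal end. It was higher at the central end at 72 h, with 238 against 161 CPM, and higher at the portal end again at 6 weeks, with 209 against 274 CPM.

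Mmp23 showed no gap in uninjured livers, with 33.8 CPM at the central and 32.1 CPM at the portal end. It was at 247 against 136 CPM at 72 h and at 158 against 84.6 CPM at 6 weeks. Timp1 did not follow it at 72 h, when the ends were at 152 and 153 CPM, while at 6 weeks they were at 43.5 and 26.4 CPM. Mmp14 differed little between the ends at 72 h (79.1 and 81.4 CPM) and was at 79.2 and 50.1 CPM at 6 weeks. Col1a1, which is in neither zonation list, was itself uneven, at 791 against 247 CPM at 6 weeks. Collagen level and position along the ranking therefore cannot be told apart at that time.

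When each library was instead divided into equal sets of cells by fibrillar collagen level, Timp1 and Mmp23 were higher in the collagen-high cells at every time. Timp1 was at 12.5 against 4.75 CPM in uninjured, 239 against 99.6 CPM at 72 h and 52.9 against 26.5 CPM at 6 weeks. Mmp23 was at 45.6 against 21.9, 268 against 138 and 171 against 91.1 CPM. Mmp2 showed no such gap at 72 h, with 169 CPM in collagen-high and 171 CPM in collagen-low cells, and was at 434 against 237 CPM at 6 weeks. Timp2 was at 788 against 566 CPM and Timp3 at 261 against 148 CPM at 72 h, and Mmp14 at 85.1 against 77.1 CPM. These sets share their library, so the contrast is within 1 pool of mice at each time.

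**Figure D3:**
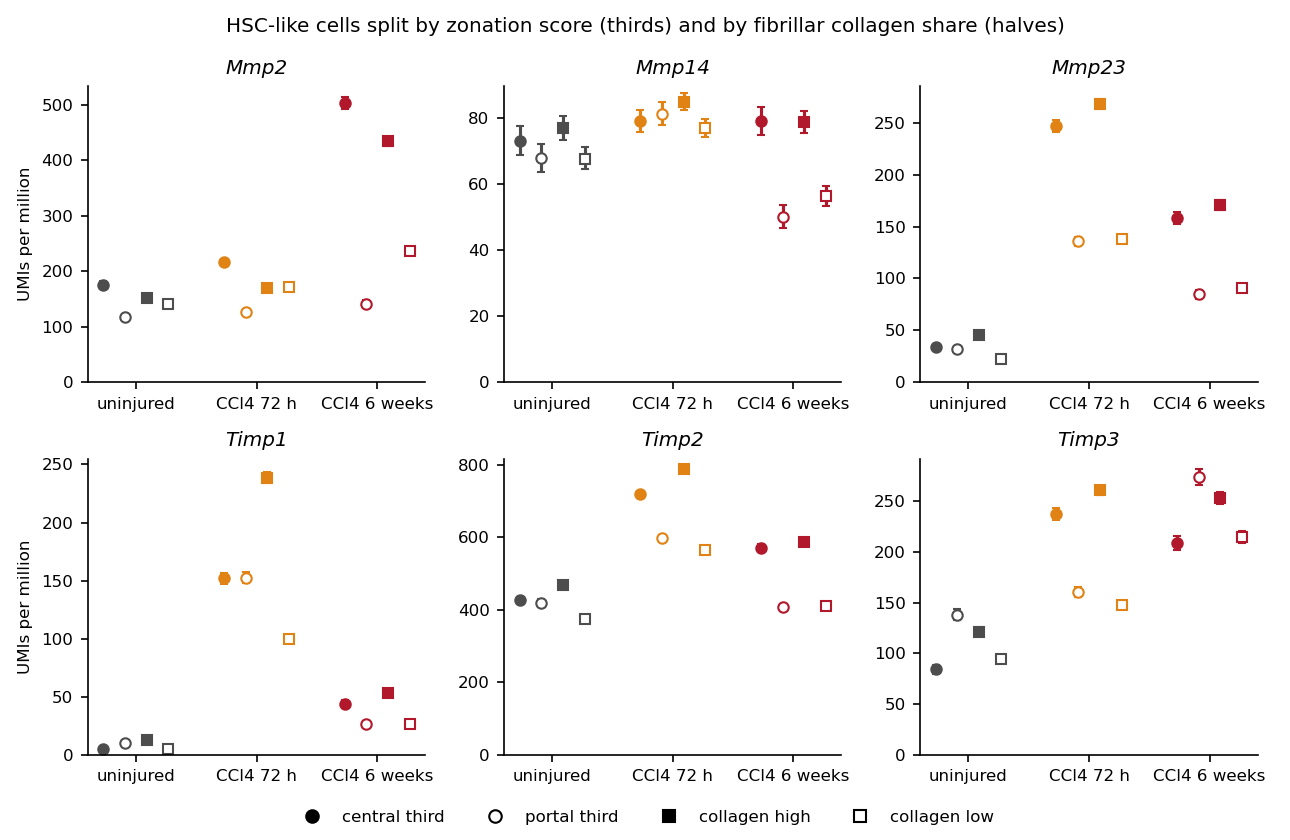
Levels of the members in CPM within HSC-like cells of each library, for the central and portal ends of the zonation ranking and for collagen-low and collagen-high cells, with exact Poisson 95% intervals. Mmp2 at 6 weeks is at 503 CPM at the central and 141 CPM at the portal end, and Timp1 is higher in collagen-high cells at all 3 times.

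FB-like cells carried a different set. Mmp3, or stromelysin 1, which cuts proteoglycans and activates other metalloproteinases, was at 497 CPM (487 to 507) in uninjured and 984 CPM (969 to 999) in 6-week livers, a 1.98-fold difference (1.93 to 2.03), while it was near 0 in HSC-like cells. No member was past 2-fold in FB-like cells (0 of 8, where 1.35% of all genes were past 2-fold higher and 1.73% in either direction). The median log2 fold of the 8 was 0.26, against -0.02 over all genes. Mmp3 was 1.82-fold after thinning and 2.01-fold when folds were scaled to the median gene, so it lay on the mark and its side of it depended on the scale. The share of thinned FB-like cells with an Mmp3 UMI went from 20.7% to 33.6%.

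Mmp3 was higher at 6 weeks in all 4 FB-like clusters. The cluster led by Ly6c1 and Pi16 went from 168 to 616 CPM, that led by Ptn and Gas6 from 614 to 1185 CPM, that led by Cxcl13 and Penk from 551 to 992 CPM, and that led by Saa3 and Thbs4 from 854 to 1040 CPM. Their make-up changed as well, since the Ly6c1 and Pi16 cluster held 1473 FB-like cells in uninjured and 474 in 6-week livers. Mmp3 was among the leading genes of the other clusters over the other mesenchymal classes. Neither it nor any other member was among the variable genes from which the clusters were drawn.

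The other members of FB-like cells were steadier. Mmp2 was at 581 CPM (571 to 592) in uninjured and 573 CPM (561 to 584) in 6-week livers, Mmp14 at 96.1 and 112 CPM, and Timp2 at 1211 and 1492 CPM (1.23-fold). Mmp2, Mmp14 and Timp2 were seen together in 9.02% (8.13 to 9.97) of thinned uninjured FB-like cells and 10.1% at 6 weeks, both of protocol 1. The 183 FB-like cells of the 72 h library, from protocol 2, were at 3.28% (1.21 to 6.999), about the share of the HSC-like cells beside them. Mmp23 was at 318 and 425 CPM (1.34-fold), Timp1 at 70.5 and 90.9 CPM (1.29-fold), Timp3 at 316 and 343 CPM, and Mmp19 at 55.9 and 61.2 CPM. Mmp13 gave 0 UMIs in either library, which allows up to 0.150 CPM in uninjured and 0.178 CPM in 6-week FB-like cells.

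Timp3 was higher in VSMC-like than in FB-like 10X cells, at 466.2 CPM in uninjured and 517 CPM in 6-week livers, which was 148% and 151% of the FB-like level. It did not set the class apart, since the 51 HSC-like cells of the uninjured protocol 1 library were at 577 CPM (472 to 698). In droplets, free RNA gives UMIs in cells that do not make a gene, and 8 FB marker genes reached 9.96% to 17.3% of their FB-like level in uninjured and 8.06% to 13.0% in 6-week VSMC-like cells. Mmp2, Mmp3 and Mmp19 lay at 9.02% to 11.2% and 7.05% to 10.5%, no higher than the highest of those markers in the same library. The part of free RNA in these values was not tested. Timp1 lay at 14.0% in uninjured cells, within the range of the markers, and at 14.8% at 6 weeks, above all 8. Mmp14 was at 43.6% and 40.3%, and Mmp23 and Timp2 between 17.9% and 23.4%. None of the 6 members at 20 CPM was past 2-fold in VSMC-like cells at 6 weeks (2.58% of all genes were, in either direction). Within the class, Timp1 was at 27.0 CPM in uninjured and 51.0 CPM in 6-week cells of the cluster led by Tnnt2, with 158 and 211 cells, and at 6.19 to 9.605 CPM in the other clusters. FB markers in the Tnnt2-led cluster averaged 0.33 of their highest level in any cluster, against 0.04 in the other VSMC-like clusters. The part of FB cells in its Timp1 was not tested.

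Of the other metalloproteinases, 17 were listed, and 1 reached 20 CPM in HSC-like and in FB-like cells and 2 did in VSMC-like cells. None of them was past 2-fold in any of the 4 10X comparisons. Mmp17, a membrane-anchored enzyme, was at 27.6 CPM in uninjured and 50.3 CPM (1.82-fold) in 6-week VSMC-like cells. Among 6 regulators, 4 reached 20 CPM in each class. Reck, a membrane-anchored inhibitor of MMP2 and MMP14, was the regulator past 2-fold in HSC-like cells, with 74.5 CPM in uninjured, 25.0 CPM at 72 h (0.336-fold) and 32.9 CPM at 6 weeks (0.442-fold). In FB-like 10X cells it was at 44.6 and 43.7 CPM. In FB-like wells of the Smart-seq2 plates it was at 136 to 295 reads per 1000000 in 5 uninjured, 50.2 to 147 in 5 BDL and 64.1 to 139 in 4 CCl4 portions, with log2 fold changes of -0.88 ± 0.37 (edgeR, adjusted p = 0.57) and -1.33 ± 0.44 (edgeR, adjusted p = 0.74). Timp4 was the regulator past 2-fold in VSMC-like cells, at 8.52 and 22.6 CPM (2.65-fold, where 2.23% of all genes were past 2-fold higher). Lrp1, the receptor that clears metalloproteinase and inhibitor complexes, was at 412, 293 and 400 CPM in HSC-like cells and at 418 and 405 CPM in FB-like cells. Bsg, which induces metalloproteinases in neighbouring cells, was at 626, 882 and 675 CPM in HSC-like cells, and in VSMC-like cells at 374 and 401 CPM.

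Smart-seq2 reads full-length RNA of single wells, and 5 plates allowed a test. Wells of a mouse name on a plate formed a portion, and counts were summed per portion and class, which gave 5 uninjured, 5 BDL and 4 CCl4 portions, all of protocol 1. Levels are reads per 1000000 (RPM). Mouse names recur between plates, so portions may share mice, and the p-values then measure only the spread between portions. Counts were tested with the quasi-likelihood test of edgeR with plate and condition as terms, and adjusted over all genes tested. Of the 8 members that passed the filter on low counts, in which Mmp13 was left out with 0 reads, none had an adjusted p under 0.05 in FB-like or VSMC-like wells. Over all genes the share called was 0.0198% for BDL and 0.033% for CCl4 in FB-like wells, and 0.00699% and 0% in VSMC-like wells. At an unadjusted p under 0.05, 3 and 2 members passed in FB-like wells for BDL and CCl4, and 2 and 1 in VSMC-like wells. DESeq2 called 3, 1, 0 and 0 members in the same order.

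**Figure D4:**
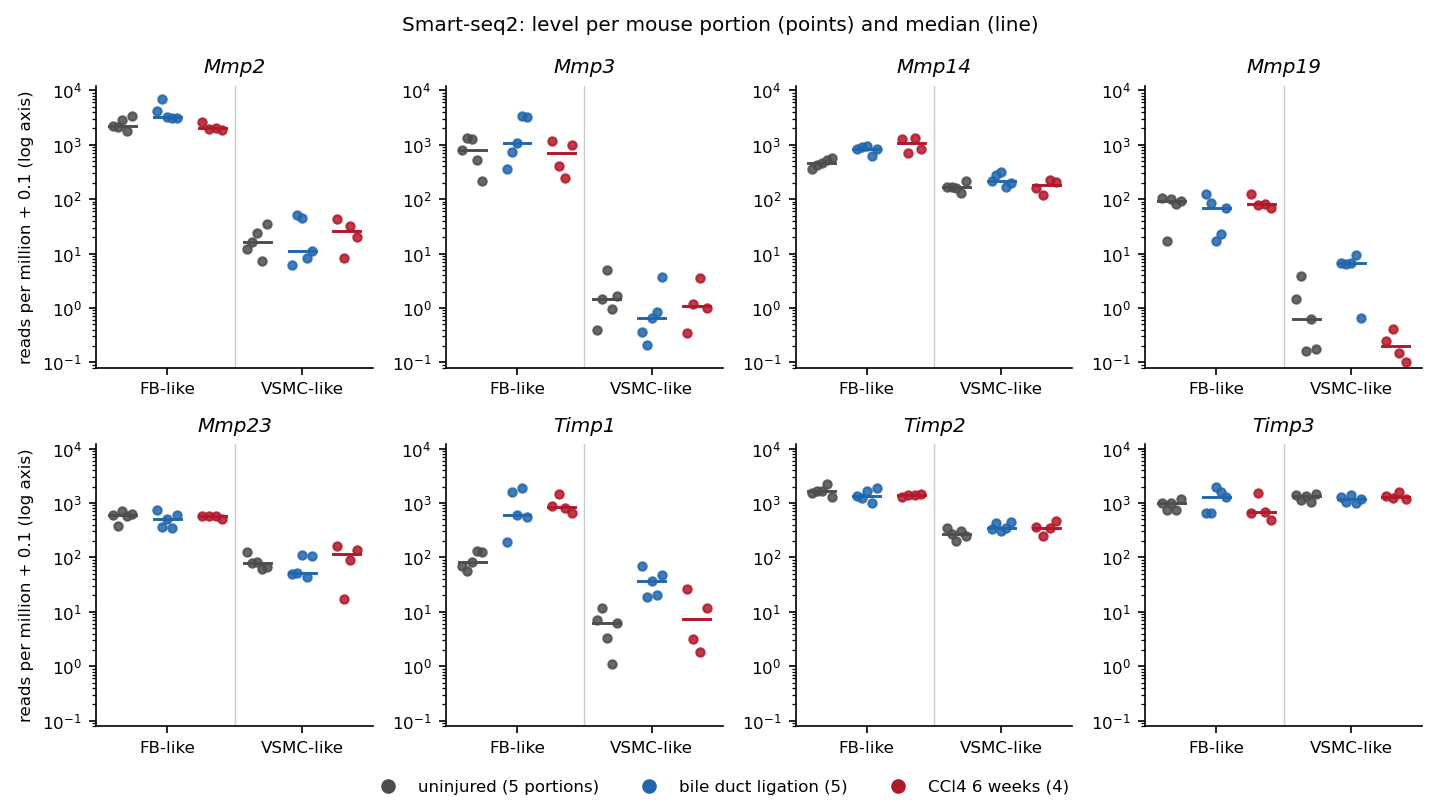
Levels of the members in RPM (log axis) in the Smart-seq2 portions of plates 1 to 5, with 1 point per portion, by class and condition. In FB-like wells all 5 BDL and all 4 CCl4 portions lie above all 5 uninjured portions for Timp1 and for Mmp14, and for Mmp3 the conditions overlap.

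Timp1 in FB-like wells was at 70.1, 56.0, 83.04, 134 and 127 RPM in the uninjured portions. The BDL portions were at 190, 1576, 608, 1889 and 560 RPM and the CCl4 portions at 885, 1478, 821 and 664 RPM. Every injured portion was above every uninjured portion. The log2 fold change was 3.54 ± 0.77 (SE) for BDL (edgeR, adjusted p = 0.17) and 3.15 ± 0.86 for CCl4 (edgeR, adjusted p = 0.43), neither past the threshold, while DESeq2 gave adjusted p = 1.18e-06 and 0.000753. The highest BDL portions were the small ones, with 12 and 9 FB-like wells.

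Timp1 reads of the injured FB-like wells came from few clusters. In CCl4 portions the cluster led by the acute phase gene Saa3 held 131 of 254 FB-like wells and 86.2% of the Timp1 reads, at 1586 RPM. It held no uninjured well. The other CCl4 FB-like wells, taken per portion, were at 147 to 365 RPM, still above the highest uninjured portion. In BDL portions the cluster led by Wif1 held 68 of 288 wells and 47.6% of the Timp1 reads, at 1116 RPM, while its CCl4 wells were at 58.1 RPM and its uninjured wells at 88.5 RPM. A stricter naming rule left the Wif1-led cluster unnamed, and Lyz2, used here as a leucocyte marker, was among its leading genes. The cluster led by Has1 was at 597 RPM in BDL, 489 RPM in CCl4 and 117 RPM in uninjured wells, and that led by Sfrp2 at 76.7, 233 and 40.4 RPM. Both were uneven over plates, with 75 of 107 Has1-led wells on plate 4 and 75 of 127 Sfrp2-led wells on plate 1. These clusters were drawn from the same wells, on variable genes that held no member, and carry no test.

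The FB-like 10X cells of 6-week CCl4 livers, at 1.29-fold for Timp1, and the FB-like CCl4 wells, at 3.15 on the log2 scale, came from the same protocol and regimen on different platforms. In the 10X libraries the cluster with Saa3 as its leading gene held 1103 uninjured and 651 6-week cells, at 70.3 and 72.4 CPM of Timp1. Its next leading genes were Thbs4, Sfrp2 and Angptl1, while those of the Saa3-led Smart-seq2 cluster were Hp, Chl1 and Serpinb2. The clusters were not matched between platforms, so their Timp1 levels are not those of a shared population.

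Marker genes of other cell types differed with the injury in FB-like wells. The summed level of 5 cholangiocyte markers was 10.2 to 25.3 RPM in uninjured, 56.9 to 2412 RPM in BDL and 85.0 to 810 RPM in CCl4 portions, nearly all of it Spp1, at 53.5 to 2372 RPM in BDL. The defining keratin Krt19 reached at most 0.0496 RPM in uninjured, 23.3 RPM in BDL and 32.4 RPM in CCl4 portions, and Epcam was at 0 in 4, 2 and 4 portions. The 5 leucocyte markers summed to 20.9 to 140, 0.641 to 417 and 258 to 568.1 RPM. In CCl4 portions the antigen presentation gene Cd74 carried most of it, at 244 to 549 RPM, while Ptprc, which encodes the sorted-out CD45, was at most 0.203 RPM. The 5 mesothelial markers summed to 25.7 to 78.7, 16.8 to 423 and 132 to 454 RPM, with Wt1 at 127 to 428 RPM in CCl4. FB markers summed to 8195 to 13192, 5174 to 12238 and 8300 to 10113 RPM. The part of other cells in the members' values was not tested.

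Mmp14 in FB-like wells was at 351, 420, 454, 530 and 576 RPM in uninjured portions, at 851, 909, 936, 617 and 818 RPM in BDL portions and at 1300, 714, 1302 and 830 RPM in CCl4 portions. No injured portion overlapped the uninjured ones. The log2 fold change was 1.01 ± 0.28 for BDL (edgeR, adjusted p = 0.35) and 1.03 ± 0.33 for CCl4 (edgeR, adjusted p = 0.71). Over all genes tested, 0.997% were higher without overlap for BDL and 3.8% for CCl4, and Timp1 and Mmp14 were the members among them in both. Without the Saa3-led wells the CCl4 portions were at 388 to 878 RPM for Mmp14 and overlapped the uninjured portions.

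Mmp2 differed between the injuries in FB-like wells more than any other member, without passing the threshold. Uninjured portions were at 2194, 2105, 2894, 1797 and 3340 RPM, BDL portions at 4135, 6992, 3298, 3088 and 3067 RPM and CCl4 portions at 2638, 1976, 2062 and 1904 RPM. BDL portions overlapped the uninjured range only at its upper end. That end, at 3340 RPM, was the uninjured portion of plate 5, which held no BDL portion. BDL portions lay on plates 1, 2 and 4 and CCl4 portions on plates 3 and 5, so their levels are set side by side across plates. Without the Saa3-led wells the CCl4 portions were at 2239 to 3488 RPM and overlapped the BDL portions. The log2 fold change was 0.94 ± 0.25 for BDL (edgeR, adjusted p = 0.31) and -0.52 ± 0.28 for CCl4 (edgeR, adjusted p = 1). The difference between the injuries was 1.47 ± 0.38 (edgeR, unadjusted p = 0.00208, adjusted p = 1), where 0% of all genes were called. The adjusted p of that difference ran from 0.0243 to 1 over the alternatives, with DESeq2 calling it. For the other members the difference between injuries had an adjusted p of 1 in edgeR.

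Mmp3 varied between portions rather than between conditions. Uninjured FB-like portions were at 793, 1341, 1266, 520 and 215 RPM, BDL portions at 356, 748, 1059, 3410 and 3191 RPM and CCl4 portions at 1181, 406, 240 and 991 RPM. The log2 fold change was 0.72 ± 0.72 for BDL and 0.32 ± 0.86 for CCl4, within the spread of the portions. The CCl4 value ran from -0.66 to 1.62 with a portion left out. Only 28 of the 131 Saa3-led CCl4 wells held an Mmp3 read, at 67.3 RPM in sum, and the other CCl4 wells ranged per portion from 538 to 1944 RPM. Mmp19 was at 17.2 to 103 RPM in uninjured, 17.1 to 123 RPM in BDL and 68.9 to 122 RPM in CCl4 portions. Mmp23 was at 383 to 712, 349 to 743 and 503 to 581 RPM, Timp2 at 1287 to 2222, 1012 to 1867 and 1273 to 1489 RPM, and Timp3 at 731 to 1187, 645 to 1952 and 481 to 1519 RPM. The ranges of these 4 genes overlapped between all conditions.

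In VSMC-like wells Timp1 was again the member that separated BDL from uninjured portions. Uninjured portions were at 6.95, 11.7, 3.14, 1.01 and 6.03 RPM, BDL portions at 70.0, 19.0, 37.3, 20.4 and 46.8 RPM and CCl4 portions at 26.6, 3.13, 1.76 and 11.8 RPM. Every BDL portion was above every uninjured portion, where 1.25% of all genes were higher without overlap, and the CCl4 portions overlapped both. For CCl4 none of the members was higher without overlap, where 0.539% of all genes were. The log2 fold change was 2.80 ± 1.09 for BDL (edgeR, adjusted p = 0.67) and 1.10 ± 1.21 for CCl4. The cluster led by Actc1, which also holds Npnt and Tnnt2 among its leading genes, carried 32.2% of the BDL Timp1 reads in 21 of 351 wells, at 199 RPM, against 43.3 RPM in CCl4 and 11.04 RPM in uninjured wells. FB markers in the Actc1-led cluster averaged 0.129 of their highest level in any cluster, against 0.002 to 0.009 in the other VSMC-like clusters. FB marker sums were 262 to 479, 82.2 to 1072 and 22.4 to 1107 RPM in uninjured, BDL and CCl4 VSMC-like portions.

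Timp3 in VSMC-like wells of plates 1 to 5 was at 1002 to 1626 RPM over all conditions. This overlapped the FB-like portions of the same plates, at 481 to 1952 RPM. Timp2 was at 203 to 354 RPM in uninjured, 300 to 440 RPM in BDL and 248 to 464 RPM in CCl4 portions, with a log2 fold change of 0.67 ± 0.24 for CCl4 (edgeR, adjusted p = 1). Mmp2 was at 5.99 to 51.0 RPM and Mmp3 at 0.110 to 4.99 RPM in the VSMC-like portions of these plates, below the FB-like wells of the same portions. Mmp14 was at 129 to 216, 169 to 314 and 121 to 226 RPM.

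Whether an injury moved a member differently in the classes was tested by the interaction of class and condition, with portions as blocks. None of the 8 members was called, where 0.0246% of all genes were for BDL and 0.0184% for CCl4. The Mmp14 response to CCl4 was 1.05 ± 0.27 higher on the log2 scale in FB-like than in VSMC-like wells (edgeR, adjusted p = 0.46, DESeq2 adjusted p = 0.0102), and that of Timp1 2.87 ± 1.23 higher (edgeR, adjusted p = 0.97). For BDL the Timp1 difference was 0.15 ± 1.16, and it ran from -0.43 to 0.85 with a portion left out, too wide a range to place FB-like and VSMC-like wells apart or together. Mmp19 was 3.84 ± 1.53 lower in its FB-like response to BDL (edgeR, adjusted p = 0.78), which rests on VSMC-like levels of 0.0650 to 9.41 RPM.

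Plate 6 held uninjured wells of both protocols and entered no test. Its HSC-like wells came from 2 portions with 154 and 158 wells. Mmp2 was at 421 and 485 RPM there, Mmp14 at 224 and 205 RPM, Timp2 at 258 and 315 RPM and Timp3 at 218 and 299 RPM. Mmp23 was at 21.9 and 40.1 RPM and Timp1 at 2.52 and 5.16 RPM, both below every uninjured FB-like portion of plates 1 to 5. Mmp3, Mmp13 and Mmp19 were at or below 0.0295 RPM. The protocol 1 portion of that plate held 18 FB-like wells with Mmp3 at 974 RPM, Mmp2 at 1604 RPM and Timp1 at 28.8 RPM, and 34 VSMC-like wells with Timp3 at 1889 RPM, Mmp2 at 3.02 RPM and Mmp3 at 16.9 RPM, outside the ranges of the VSMC-like portions of the other plates.

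The genes most like each member over 32 portion and class sums were ranked by Pearson's correlation of log2(RPM + 1) among 8697 genes. The sums share plates, mice and class markers, so these correlations mostly follow class and carry no test. Mmp2 was closest to Col6a1 (r = 0.966), Olfml3 and Pdgfra, and Mmp3 to Sfrp1 (r = 0.979), Lbp and Svep1. For Mmp14 the closest genes were Nfasc (r = 0.941), Gda and Bmp1, for Mmp19 Ctsh (r = 0.933), Igfbp6 and Gpnmb, and for Mmp23 Aebp1 (r = 0.970), Cd63 and Col6a2. Timp1 ran closest to Osmr (r = 0.934), the oncostatin M receptor, then Fstl1 and Mmp14 (r = 0.901), which is itself a member. Timp2 was closest to Igfbp6 (r = 0.967), Dpep1 and Fxyd6, and Timp3 to Serpine2 (r = 0.831), Cpxm2 and Galnt16.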

How the data were processed

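For the 10X libraries Cell Ranger 2.1.0 was run by the authors on the mm10 build, and they deposited counts of UMIs per gene and cell, without normalization. For Smart-seq2 the authors ran STAR on mm10 with the eGFP and ERCC sequences added and deposited read counts per gene and well, again without normalization. Read counts without molecular identifiers are not independent molecules, and neither kind of count was corrected for free RNA.

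The members, gene lists and comparisons were chosen with earlier results of these data known, so no list here is independent of them. All 9 members are named in every comparison. Other metalloproteinases and regulators are counted, and named where they passed a test, were past 2-fold or reached 50 CPM in a class. Mmp17 and the clusters named for Timp1 and Mmp3 were chosen after their values were seen.

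Cells with fewer than 300 genes or over 30% mitochondrial UMIs were left out, after the methods. Genes in fewer than 3 cells of a library did not count towards those 300 but were kept in all levels. Totals ran from 25965670 to 86664085 UMIs per library. Wells beyond 3 median absolute deviations in total, genes or spike-in share were left out, which kept 2065 wells of 6 plates of 384, with median reads of 416576.5 to 467790 per plate. Cells were clustered (2000 variable genes, 10 principal components, 30 neighbours, Leiden at resolution 0.8), the 6-week and the 72 h libraries each with the uninjured ones. The members, the other metalloproteinases and the regulators were left out of the variable genes. A cluster took the class whose markers were highest, and stayed unnamed where markers of another type outnumbered them among its 10 leading genes over the other mesenchymal classes. This rule was chosen with the clusters already known, and Clec4g was not used in it. A stricter rule, with leading genes taken over all other cells, is among the alternatives. Doublets were scored against simulated ones and kept in the main values, and 238 to 427 cells per library were called.

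Class sums are UMIs per 1000000 (CPM) with exact Poisson intervals, shares have exact binomial intervals, both at 95%, and a count of 0 allows up to 3 counts. Smart-seq2 sums per portion and class with at least 5 wells were tested on plates 1 to 5 with edgeR (quasi-likelihood F test, TMM scaling, filterByExpr, terms for plate and condition, Benjamini-Hochberg over all genes), with an interaction of class and condition blocked by portion. The edgeR test of BDL against uninjured in FB-like wells was also run on simulated counts, which held no plate effect. The other tests were not checked in this way. Plate 6 entered no test. Alternatives were DESeq2, its size factors in edgeR, no filter on low counts, wells filtered on a log scale, at least 10 wells per portion, no plate term, each portion left out in turn, thinned cells, doublets or cells of other types left out, other clusterings and scalings, and portions merged across plates. Gene positions and promoters are those of GRCm38. Software was Python 3.11.15 with numpy 2.4.6, scipy 1.17.1, pandas 2.3.3, scikit-learn 1.9.0, leidenalg 0.10.2 and matplotlib 3.10.9, and R 4.3.3 with edgeR 4.0.16, limma 3.58.1 and DESeq2 1.42.0.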

Additional observations from a re-analysis of the deposited data

Results flagged for a closer look

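In 5 of 48 groups of Smart-seq2 portions a single portion stood apart from the others by Dixon's test at 95%, where chance flags about 1 in 20 groups. Mmp19 in FB-like wells was at 17.25 RPM in uninjured portion 2, with 34 wells and 269 reads, while the other uninjured portions were at 80.54 to 103.4 RPM. Mmp2 in FB-like wells was at 6992 RPM in BDL portion 2, which holds 12 wells, while the other BDL portions were at 3067 to 4135 RPM, and without that portion the BDL log2 fold change was 0.78 (edgeR, adjusted p = 0.40). Mmp23 in FB-like wells was at 503.2 RPM in CCl4 portion 4 and at 577.4 to 581.2 RPM in the others, a narrow range that makes a small gap stand out. Mmp3 in VSMC-like wells was at 3.593 RPM in BDL portion 5 (166 reads; others 0.1099 to 0.759 RPM) and at 4.991 RPM in uninjured portion 3 (154 reads; others 0.2933 to 1.576 RPM).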

How the results depend on the processing

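No result called under any setting changed direction. By edgeR 0 members were called in any of the 7 Smart-seq2 results and also after each portion was left out in turn (0 to 0 members each). DESeq2 called 3 members for BDL in FB-like wells (Mmp2, Mmp14, Timp1), 1 for CCl4 (Timp1), 1 for the difference between injuries (Mmp2), and 1 for each class difference (Mmp19 for BDL, Mmp14 for CCl4). With no filter on low counts 1 member (Timp1) was called for BDL and 1 for CCl4 in FB-like wells, and with no plate term 1 (Timp1) and 2 (Mmp14, Timp1). Over all genes edgeR called 3 for BDL and 5 for CCl4 in FB-like wells, against 677 and 437 with DESeq2, 253 and 137 without the filter and 67 and 88 without the plate term, and the cause was not tested. In VSMC-like wells the BDL count was 1 with edgeR and 433 with DESeq2. The log2 fold change of Timp1 in FB-like wells ran from 2.71 to 4.09 for BDL and from 2.60 to 3.82 for CCl4 with a portion left out. It was 2.23 for BDL without the Wif1-led cluster, which the stricter naming left unnamed (edgeR, adjusted p = 0.56). With portions merged across plates it was 3.16 (edgeR, adjusted p = 0.27), and both alternatives were added after the data were seen. In 10X cells, scaling to the median fold put 1 member (Mmp3) past 2-fold in FB-like cells and Timp3 past it in HSC-like cells at 72 h, which made 3 members there. The VSMC-like Mmp3 fold was 1.33, and 1.98 without doublets. No paired analysis was possible because replicate numbers mark no shared mouse across conditions, and the blocks used were the plate in the tests within a class and the portion in the class differences. Members under 20 CPM, or at 1 library per condition, are limited by counting error and by the lack of replicates.

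Of 56 log2 fold changes of members in Smart-seq2 wells, 28 changed sign under at least 1 alternative, and none of these had an adjusted p under 0.05 there. For BDL in FB-like wells Mmp19 was at -0.030 with at least 10 wells, Mmp19 was at -0.30 and Mmp23 at -0.14 with no plate term, Mmp19 was at -0.14 and Timp3 at -0.70 under the stricter naming and Mmp19 was at -0.025 with merged portions. With a portion left out Mmp19 ran from -0.085 to 0.15, Mmp23 from -0.087 to 0.21 and Timp3 from -0.0087 to 1.11. For CCl4 in FB-like wells Mmp3 was at -0.19 and Mmp19 at 0.17 with no plate term. Leaving out 1 portion, Mmp3 ran from -0.66 to 1.62, Timp2 from -0.31 to 0.23 and Timp3 from -0.97 to 0.11. For the difference between injuries Mmp14 was at 0.077 with at least 10 wells, Mmp19 was at -0.47, Mmp23 at -0.10 and Timp2 at 0.079 with no plate term, Timp1 was at -1.26 and Timp3 at -0.47 under the stricter naming and Timp1 was at -0.021 with merged portions. With a portion left out Timp1 ran from -0.45 to 0.93, Mmp14 from -0.21 to 0.23, Mmp3 from -0.91 to 1.37 and Timp2 from -0.44 to 0.098. For BDL in VSMC-like wells Mmp3 was at 0.036 and Timp3 at -2.0e-05 with the log-scale well filter, Timp3 was at -0.041 with no plate term and Mmp3 was at 0.17 and Mmp23 at 0.0047 with merged portions. Leaving out 1 portion, Mmp3 ran from -0.79 to 0.48, Timp3 from -0.051 to 0.17 and Mmp23 from -0.63 to 0.42. For CCl4 in VSMC-like wells Timp3 was at 0.0064 with DESeq2, Timp3 was at 0.0063 with DESeq2's size factors, Mmp19 was at -0.19 with the log-scale well filter, Mmp2 was at 0.48, Mmp14 at 0.12, Mmp19 at -3.03 and Timp3 at 0.13 with no plate term and Timp3 was at 0.0022 with merged portions. With a portion left out Mmp23 ran from -0.61 to 0.88, Mmp2 from -0.93 to 0.11, Mmp14 from -0.22 to 0.023, Mmp19 from -1.30 to 1.74, Timp3 from -0.11 to 0.081 and Mmp3 from -2.89 to 0.51. For the class difference under BDL Mmp23 was at -0.067 with the log-scale well filter, Timp1 was at -0.43 with at least 10 wells, Timp1 was at -0.87 and Timp3 at -0.97 under the stricter naming and Mmp23 was at -0.14 and Timp1 at -0.60 with merged portions. Leaving out 1 portion, Mmp23 ran from -0.21 to 0.18 and Timp1 from -0.43 to 0.85. For the class difference under CCl4 Mmp3 was at -0.0056 with DESeq2's size factors, Mmp3 was at -0.013 with the log-scale well filter, Mmp3 was at -0.00095 with at least 10 wells, Mmp3 was at -0.13 under the stricter naming and Mmp3 was at -0.039 and Mmp23 at 0.038 with merged portions. With a portion left out Mmp3 ran from -0.86 to 1.07 and Mmp23 from -0.70 to 0.35. The cause was not tested.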
